A study of Drosophila melanogaster with 9 samples.

Results

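Glutathione S-transferases were followed in the indirect flight muscle of Drosophila melanogaster through every gene whose platform symbol begins with Gst. The array carried 36 such probe sets with a single named gene, and they stood for 34 genes among 11982 genes measured. GstE9 and GstO2 had 2 probe sets each, and the one with the highest mean over the 9 arrays represented the gene. The 34 genes fell by name into 6 classes: 11 delta, 13 epsilon, 3 omega, 4 theta, 2 zeta and 1 sigma (GstS1). The rule reads symbols, and levels only to pick the brighter probe set of a gene.

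Cytosolic glutathione S-transferases attach the tripeptide glutathione to electrophilic molecules, among them insecticides and the aldehydes that form when membrane lipids are oxidised, and several also reduce peroxides. In insects the delta and epsilon classes are the expanded ones, they lie in tandem gene clusters, and some of their members are induced through the transcription factor Cnc when its inhibitor Keap1 releases it. The sigma enzyme GstS1 is abundant in flight muscle, where it is held near the thin filament by the proline-rich extension of troponin-H, a flight muscle form of tropomyosin, and it acts on the lipid peroxidation product hydroxynonenal.

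The 3 genotypes were measured on Affymetrix Drosophila Genome 2.0 arrays, with 3 independent biological replicates each. Canton-S is a wild-type laboratory strain, Act88FKM88 carries a null allele of Act88F, the actin of the flight muscle thin filament, and Mhc7 carries a myosin heavy chain allele that leaves flight muscle without its thick filament motor. All flies were adult males aged 1 to 2 days reared at 25 °C, and the muscles were dissected by hand from thoraces kept in cold ethanol, so other thoracic tissue could be carried along. Both mutants were set against the same 3 Canton-S arrays, so their differences from the wild type were not independent of each other. The labels do not say whether the 3 genotypes share a genetic background. A difference due to the allele and one due to the strain therefore cannot be told apart.

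The Act88FKM88 label and the tissue were checked on marker genes. The Mhc7 label was not checked this way, since Mhc, 1 of the 7 flight muscle markers listed, was not measured. Act88F lay at log2 14.10, 14.32 and 14.36 in Canton-S, at 11.57, 11.79 and 11.03 in Act88FKM88, and at 14.10, 14.25 and 14.14 in Mhc7, so it was lower in each Act88FKM88 array. The 6 measured flight muscle markers all lay above the median level in the data. Their summed linear signal was 49077 to 60525 in Canton-S, 43894 to 50695 in Act88FKM88 and 58054 to 64420 in Mhc7. That sum includes Act88F itself, the gene that is null in Act88FKM88. The other markers differed from Canton-S in Act88FKM88 by 0.14 (TpnC4 and up), 0.25 (fln), 0.33 (Tm2) and 1.23 (Mlp60A). In Mhc7 they differed by -0.68 (TpnC4), 0.17 (up), 0.39 (fln), 0.32 (Tm2) and 1.12 (Mlp60A). Mlp60A alone of these passed the limits given below, in both mutants, where 1.92% and 3.12% of all genes rose. Array medians were 3.05 to 3.12 on the log2 scale, while the 95th percentile was 7.26 to 7.47 in Canton-S, 7.57 to 7.96 in Act88FKM88 and 7.77 to 8.15 in Mhc7. The upper part of the deposited scale thus lay higher in both mutants, and this bears on the differences of brighter probe sets given here. In whole dissected muscle, a change in the number of cells and a change in RNA per cell cannot be told apart.

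All values are log2 expression values as deposited, and differences are log2 differences between genotype means with the standard error of the limma contrast (n = 3 arrays per genotype). A gene passed at a Benjamini-Hochberg adjusted p under 0.1 and a change of at least 2-fold, and only such genes are said to have risen or fallen. These are the limits stated for the study, applied here with limma in place of the test SAM. SAM, coded from its published description, was run as an alternative. In Act88FKM88, 3 of the 34 genes rose against Canton-S (8.82%), namely GstD1, GstE1 and GstE6, where 1.92% of all genes rose. In Mhc7, 5 of 34 rose (14.7%), namely GstD1, GstD3, GstE11, GstO2 and GstO3, where 3.12% of all genes rose. No Gst gene fell in either mutant, where 0.434% and 0.442% of all genes fell. At an unadjusted limma p under 0.05, 9 Gst genes (26.5%) differed from Canton-S in Act88FKM88 and 10 (29.4%) in Mhc7, where 17.1% and 20% of all genes did. GstD1 alone passed in both mutants.

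Most of the family gave no call, and 27 of the 34 genes passed in none of the 3 contrasts between genotypes. The differences of those 27 from Canton-S ran from -0.22 to 0.82 in Act88FKM88 and from -0.59 to 0.89 in Mhc7. The median difference over the 34 genes was 0.14 in Act88FKM88 and 0.06 in Mhc7, beside -0.01 and -0.00 over all genes. Differences were above 0 for 24 genes in Act88FKM88 and for 18 in Mhc7, beside 47.1% and 49.2% of all genes. The 3 arrays of Act88FKM88 did not overlap those of Canton-S for 10 Gst genes (29.4%), 7 higher and 3 lower, where 20.7% of all genes did not overlap in either direction. For Mhc7 it was 15 genes (44.1%), 11 higher and 4 lower, where 24.4% of all genes did not overlap. The plot of differences shows a few genes far to the right and most others close to 0.

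**Figure D1:**
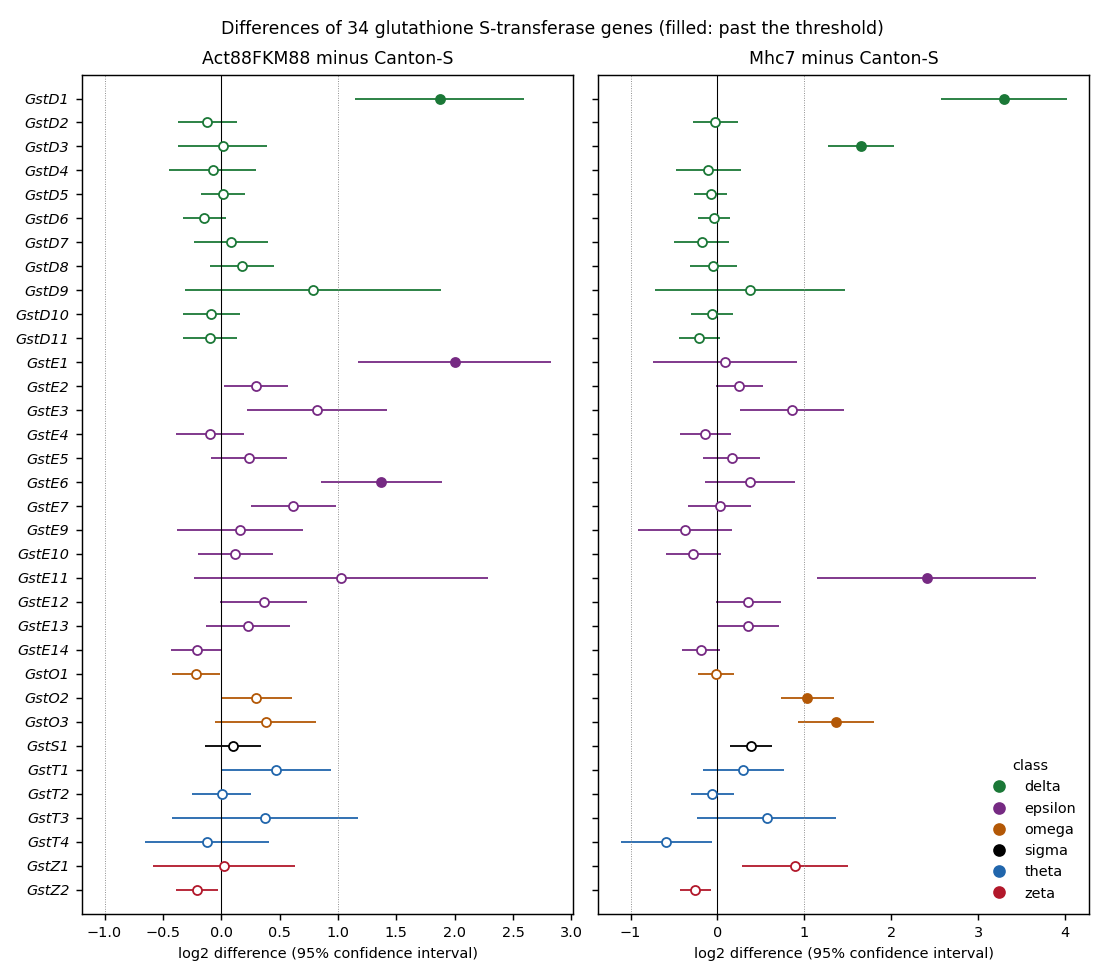
Log2 differences from Canton-S of the 34 glutathione S-transferase genes in Act88FKM88 (left) and Mhc7 (right), with 95% confidence intervals of the limma contrast, n = 3 arrays per genotype. Colours give the class, filled points passed an adjusted p of 0.1 and 2-fold (3 genes left, 5 right), and the dotted lines mark a 2-fold change.

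Low levels limited 9 members. GstD5, GstD6, GstD7, GstE2, GstE4, GstE5, GstE14, GstO1 and GstZ2 had means below the median of all probe sets (3.08), and no array exceeded 3.47 for any of them. Their differences from Canton-S ran from -0.22 to 0.30 in Act88FKM88 and from -0.25 to 0.25 in Mhc7. GstE14 belongs to ecdysteroid synthesis in the prothoracic gland of the larva, and it was among these 9 genes in adult muscle. Detection calls were not used here, so whether these probe sets exceeded background was not tested.

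GstD1, which detoxifies DDT in flies and is a common reporter of oxidative stress, rose in both mutants. Its values were 8.02, 8.07 and 8.71 for Canton-S, 10.11, 9.43 and 10.87 in Act88FKM88, and 11.46, 11.53 and 11.71 in Mhc7. The 3 genotypes did not overlap: every Act88FKM88 array lay above all Canton-S arrays and below all Mhc7 arrays. The rise was 1.87 ± 0.32 in Act88FKM88, or 3.66-fold (limma adjusted p = 0.0173), and 3.30 ± 0.32 in Mhc7, or 9.83-fold (limma adjusted p = 0.00115). Act88FKM88 3 was the highest array of its group, and the rise was 1.51 without it. Both rises passed in each of the 9 fits that left out 1 array. The rise in Act88FKM88 did not pass by SAM, an alternative test on the 6 arrays of the pair.

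GstD3, 2 genes along from GstD1 in the delta cluster, rose in Mhc7 and not in Act88FKM88. It lay at 4.03, 3.82 and 4.52 in Canton-S, at 4.18, 4.21 and 4.02 in Act88FKM88, and at 5.66, 5.70 and 5.97 in Mhc7. The Act88FKM88 arrays lay inside the Canton-S range, and the Mhc7 arrays stood more than 1 log2 unit above both. The rise in Mhc7 was 1.65 ± 0.17, or 3.15-fold (limma adjusted p = 0.0012). In Act88FKM88 the difference was 0.01 with a 95% interval of -0.37 to 0.39.

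**Figure D2:**
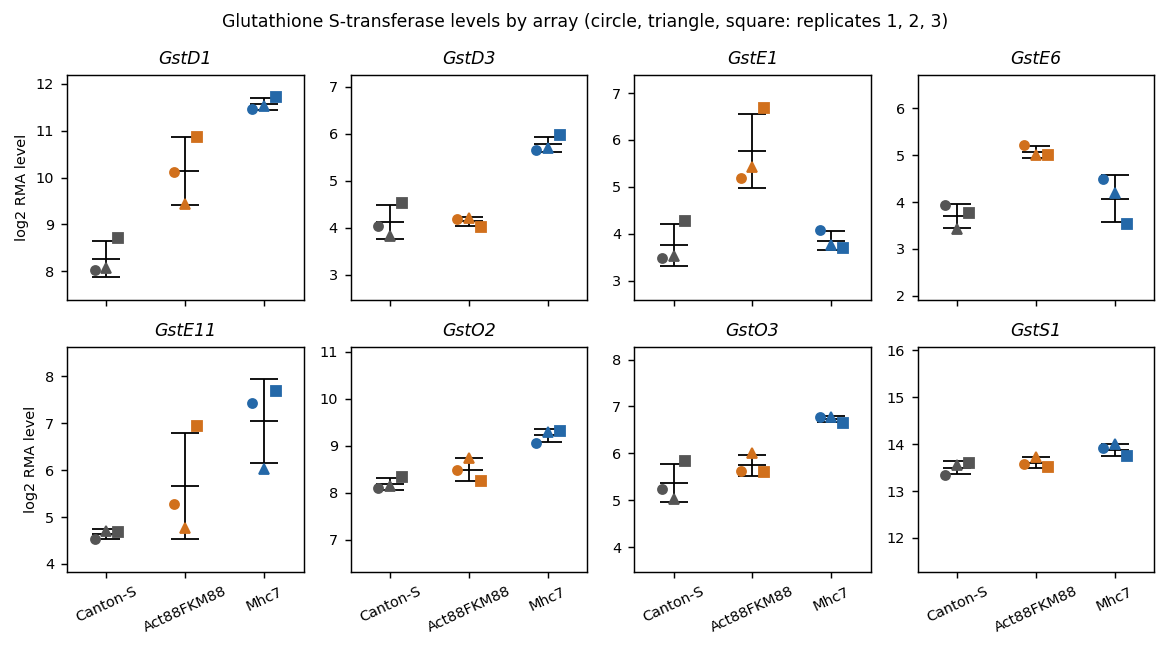
Deposited log2 RMA values of 8 glutathione S-transferase genes in each array, with the mean and SD of each genotype as bars (n = 3). All panels span the same number of log2 units, GstD1 separates the 3 genotypes, GstE1 and GstE6 are high in Act88FKM88, and GstD3, GstO2 and GstO3 are high in Mhc7.

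The other 9 delta genes did not pass. RefSeq's Release 6 assembly places 10 delta genes side by side on chromosome arm 3R, in the order GstD10, GstD9, GstD1, GstD2, GstD3, GstD4, GstD5, GstD6, GstD7 and GstD8. GstD11 follows after 1 intervening gene. Within this run of neighbours, 1 gene rose in Act88FKM88 and 2 in Mhc7, where 1.92% and 3.12% of all genes rose. GstD2, which lies between the pair that rose in Mhc7, did not pass. The median difference of the 11 delta genes was 0.01 in Act88FKM88 and -0.04 in Mhc7, beside the rise of 3.30 in GstD1. Apart from GstD1, GstD3 and GstD9, the delta genes had low means, from 2.79 to 3.68, where the median of all probe sets was 3.08. These medians therefore rest mostly on dim probe sets. Delta paralogs resemble each other in sequence, and cross-hybridisation between them was not tested.

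Among the epsilon genes, GstE1 and GstE6 rose in Act88FKM88. GstE1, an enzyme active on hydroxynonenal, lay at 3.48, 3.53 and 4.28 in Canton-S, at 5.20, 5.42 and 6.68 in Act88FKM88, and at 4.09, 3.77 and 3.70 in Mhc7. Every Act88FKM88 array was above the other 6, and the Mhc7 arrays lay within the Canton-S range. The rise was 2.00 ± 0.37, or 4.0-fold (limma adjusted p = 0.022), and 1.54 without Act88FKM88 3, the highest array. In Mhc7 the difference was 0.09 with a 95% interval of -0.74 to 0.91.

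GstE6 gave a tighter pattern than GstE1. Its values were 3.93, 3.42 and 3.76 in Canton-S, 5.22, 5.0 and 5.0 in Act88FKM88, and 4.50, 4.20 and 3.53 in Mhc7. The Act88FKM88 arrays lay close together and above all others, and Mhc7 overlapped Canton-S. The rise in Act88FKM88 was 1.37 ± 0.23, or 2.59-fold (limma adjusted p = 0.0153). In Mhc7 the difference was 0.37 ± 0.23 (limma adjusted p = 0.484). The rises of GstE1 and GstE6 in Act88FKM88 passed in each of the 9 fits that left out 1 array. By SAM, an alternative test on the 6 arrays of the pair, GstE6 passed and GstE1 did not.

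GstE11 rose in Mhc7, with a larger standard error than the other 6 genes that passed. It lay at 4.52, 4.71 and 4.68 in Canton-S, at 5.29, 4.77 and 6.94 in Act88FKM88, and at 7.44, 6.02 and 7.69 in Mhc7. All mutant arrays were above all Canton-S arrays, but Act88FKM88 3 lay among the Mhc7 arrays. The rise in Mhc7 was 2.41 ± 0.56, or 5.32-fold (limma adjusted p = 0.0423). It no longer passed without Canton-S 1 (adjusted p = 0.135), Canton-S 2 (0.112), Mhc7 1 (0.114) or Mhc7 3 (0.161), with the quantile normalization repeated (0.109) or with the intensity trend removed (0.106). In Act88FKM88 the difference was 1.03 ± 0.56 (limma adjusted p = 0.464), and it was 0.39 without Act88FKM88 3.

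GstE1 and GstE6 belong to a run of 8 measured epsilon genes on chromosome arm 2R (GstE10, then GstE1 to GstE7). GstE9 follows after 1 gene that is not among the 34. GstE8 had no probe set with that single platform symbol, so this gap does not show a break in the gene cluster. Of these 8, 2 rose in Act88FKM88 and 0 in Mhc7, where 1.92% and 3.12% of all genes rose. At an unadjusted limma p under 0.05, 5 of the 8 differed from Canton-S in Act88FKM88 and 1 in Mhc7, where 17.1% and 20% of all genes did. GstE11, GstE12, GstE13 and GstE14 lie elsewhere on 2R. The bars by gene order show GstE3 and GstE7 as the next tallest in Act88FKM88, and both are named after their values were seen. GstE7 differed by 0.62 ± 0.16 in Act88FKM88 (limma adjusted p = 0.0853, below 2-fold), and by 0.03 in Mhc7. GstE3 differed by 0.82 ± 0.27 in Act88FKM88 and by 0.85 ± 0.27 in Mhc7 (limma adjusted p = 0.171 and 0.125).

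**Figure D3:**
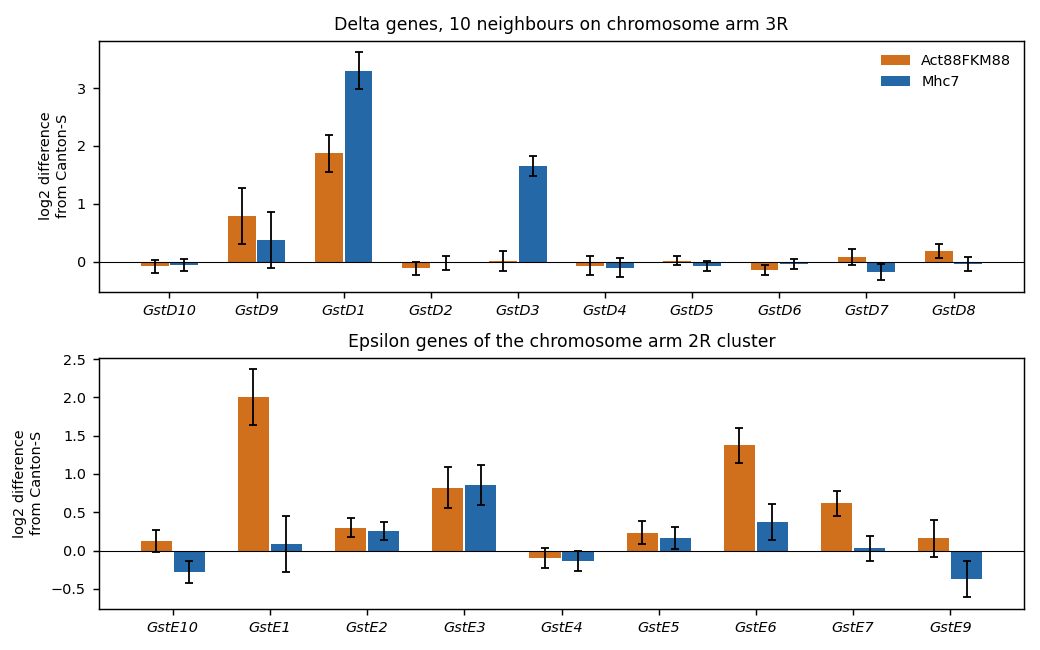
Mean log2 differences from Canton-S, with the SE of the limma contrast (n = 3 arrays per genotype), for delta genes (top) and epsilon genes (bottom) in their order along the chromosome arm. In the delta run GstD1 is high in both mutants and GstD3 in Mhc7 (1.65), and in the epsilon run GstE1 (2.00) and GstE6 (1.37) are high in Act88FKM88.

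GstE13 had the highest mean of the epsilon probe sets and did not pass in either mutant. It lay at 8.55, 9.19 and 8.94 in Canton-S, at 9.08, 9.28 and 9.01 in Act88FKM88, and at 9.22, 9.12 and 9.39 in Mhc7, and the 3 genotypes overlapped. The differences were 0.23 ± 0.16 and 0.35 ± 0.16 (limma adjusted p = 0.577 and 0.314). Over the 13 epsilon genes, 11 differences were above 0 in Act88FKM88 with a median of 0.30, and 9 were above 0 in Mhc7 with a median of 0.16. The Mhc7 median was 0.02 once each array's intensity trend was removed.

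Omega transferases carry a cysteine in the active site and act as thiol transferases and dehydroascorbate reductases. GstO2 and GstO3 rose in Mhc7, while GstO1 was one of the 9 low members. GstO3 lay at 5.23, 5.04 and 5.83 in Canton-S, at 5.62, 6.01 and 5.61 in Act88FKM88, and at 6.77, 6.77 and 6.65 in Mhc7. Canton-S and Act88FKM88 overlapped, and the Mhc7 arrays were above both and close together. The rise in Mhc7 was 1.36 ± 0.19, or 2.57-fold (limma adjusted p = 0.00408), and it passed in each of the 9 fits that left out 1 array. In Act88FKM88 the difference was 0.38 ± 0.19 (limma adjusted p = 0.422).

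GstO2 lay at 8.10, 8.13 and 8.33 in Canton-S, at 8.47, 8.74 and 8.25 in Act88FKM88, and at 9.06, 9.29 and 9.31 in Mhc7. The Mhc7 arrays again stood above the other 6, which overlapped each other. The rise was 1.03 ± 0.13 (limma adjusted p = 0.00283), which is 2.05-fold and so just past the 2-fold limit. It dropped below 2-fold without Canton-S 1 (0.99), Mhc7 2 (0.999) or Mhc7 3 (0.99), with the quantile normalization repeated (0.33), with the intensity trend removed (0.52) and as the mean over both GstO2 probe sets (0.62). In Act88FKM88 the difference was 0.30 ± 0.13, and it turned to -0.12 with the quantile normalization repeated and -0.06 with the intensity trend removed. Averaged over the 3 omega genes, the level was 5.41 to 5.71 in the Canton-S arrays, 5.59 to 5.84 in Act88FKM88 and 6.32 to 6.34 in Mhc7. A second GstO2 probe set lay near the array median, at a mean of 3.05, and differed by 0.20 in Mhc7.

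GstS1, the sigma enzyme of flight muscle, did not pass in either mutant. Its probe set lay at 13.34, 13.55 and 13.60 in Canton-S, at 13.57, 13.73 and 13.50 in Act88FKM88, and at 13.92, 13.99 and 13.74 in Mhc7. The lowest Mhc7 array lay barely above the highest Act88FKM88 array, and Act88FKM88 overlapped Canton-S. The difference in Mhc7 was 0.38 ± 0.11 (limma adjusted p = 0.0857, 1.31-fold), and in Act88FKM88 it was 0.10 ± 0.11 (limma adjusted p = 0.729). The Mhc7 difference was 0.14 with the quantile normalization repeated and -0.12 with the intensity trend removed, so its sign depended on the scale. The suffix of the probe set marks it as one that can match several transcripts.

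The theta and zeta genes did not pass. GstT3, the theta probe set with the highest mean, lay at 5.60, 5.32 and 5.62 in Canton-S, at 5.97, 6.63 and 5.06 in Act88FKM88, and at 5.88, 6.56 and 5.80 in Mhc7. Act88FKM88 spanned both other genotypes, and the differences were 0.37 ± 0.35 and 0.57 ± 0.35 (limma adjusted p = 0.7 and 0.491). The 4 theta differences ran from -0.12 to 0.47 in Act88FKM88 and from -0.59 to 0.57 in Mhc7. GstZ1, a zeta enzyme of the class that isomerises maleylacetoacetate in tyrosine breakdown, lay at 3.37, 2.95 and 3.25 in Canton-S, at 2.99, 3.26 and 3.39 in Act88FKM88, and at 3.52, 4.74 and 3.99 in Mhc7. All Mhc7 arrays were above the rest, but they spread over more than 1 log2 unit, and the difference of 0.89 ± 0.27 missed the limit (limma adjusted p = 0.116). It was 1.18 and passed without Mhc7 1.

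The direct comparison set Act88FKM88 against Mhc7, and it does not use the Canton-S means. GstE1 was higher in Act88FKM88 (1.91 ± 0.37, limma adjusted p = 0.0308), where 0.943% of all genes were. GstD3 and GstD1 were lower in Act88FKM88, with differences of -1.64 ± 0.17 (limma adjusted p = 0.00174) and -1.43 ± 0.32 (limma adjusted p = 0.0591), where 1.36% of all genes were. The arrays of the 2 mutants did not overlap for any of these 3 genes. GstD3 passed in each of the 9 fits that left out 1 array. GstD1 missed the limit without Act88FKM88 1 (adjusted p = 0.196), Mhc7 1 (0.105), Mhc7 2 (0.151) or Mhc7 3 (0.197), and GstE1 without Mhc7 2 (0.105) or Mhc7 3 (0.125).

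A further 3 genes met the adjusted p between the mutants but not the 2-fold limit. GstO3 differed by -0.98 ± 0.19 (limma adjusted p = 0.0349), GstO2 by -0.73 ± 0.13 (0.0261) and GstE6 by 0.999 ± 0.23 (0.0618). GstE11 differed by -1.38 ± 0.56 (limma adjusted p = 0.324), and without Act88FKM88 3 the difference was -2.02 and passed. By class, the 3 omega differences between the mutants were all negative, from -0.98 to -0.20. Of the 13 epsilon differences 9 were positive, with a median of 0.05.

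Genes that supply, use or regulate glutathione outside the Gst symbols were read from lists of related genes. Of 5 thiol reduction genes, 4 rose in Mhc7 and 0 in Act88FKM88, where 3.12% and 1.92% of all genes rose. Of the 4, only Gtpx still passed in Mhc7 both with the quantile normalization repeated and with the intensity trend removed. Gtpx, a glutathione peroxidase homolog that works with thioredoxin, lay at 9.51, 10.01 and 10.18 in Canton-S, at 10.56, 10.57 and 10.93 in Act88FKM88, and at 11.56, 11.55 and 11.77 in Mhc7. The 3 genotypes did not overlap, with differences of 0.79 ± 0.18 in Act88FKM88 (limma adjusted p = 0.0485, below 2-fold) and 1.73 ± 0.18 in Mhc7 (0.0012). The glutaredoxin gene Grx1 rose by 1.32 ± 0.15 in Mhc7 (limma adjusted p = 0.0019). In Act88FKM88 Grx1 differed by 0.64 ± 0.15 (limma adjusted p = 0.0664, below 2-fold). Trxr1, the thioredoxin reductase that also recycles glutathione in flies, which lack glutathione reductase, rose by 1.16 ± 0.14 in Mhc7 (0.00236).

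The thioredoxin Trx2 rose by 1.01 ± 0.16 in Mhc7 (limma adjusted p = 0.00815), and the difference was under 2-fold without Canton-S 1 (0.91), Canton-S 2 (0.99), Mhc7 2 (0.93) or Mhc7 3 (0.96). These thiol calls depended on the scale. With the quantile normalization repeated, or with the intensity trend removed, Gtpx still passed in Mhc7 (1.13 and 1.22), while Grx1 (0.69 and 0.81), Trxr1 (0.45 and 0.66) and Trx2 (0.28 and 0.51) stayed below 2-fold. Between the mutants Trxr1 was lower in Act88FKM88, with a difference of -1.03 ± 0.14 (limma adjusted p = 0.00735), and this too was below 2-fold under both changes of scale (-0.78 and -0.89) and without Act88FKM88 3 (-0.90), Mhc7 2 (-0.99) or Mhc7 3 (-0.97).

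Among 5 measured exporters of the ABCC family, which pump glutathione conjugates out of cells, MRP rose in Mhc7, where 3.12% of all genes rose. It lay at 6.03, 5.24 and 5.73 in Canton-S, at 6.46, 6.18 and 5.73 in Act88FKM88, and at 6.67, 7.38 and 7.25 in Mhc7. The Mhc7 arrays were above the other 6, with a difference of 1.44 ± 0.26 (limma adjusted p = 0.0143), beside 0.46 ± 0.26 in Act88FKM88 (0.486). The other 4 exporters did not pass, and all 4 lay below the median level.

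Of 6 other genes for proteins with a glutathione transferase fold or activity, gfzf fell in Act88FKM88, where 0.434% of all genes fell. The probe set with the highest mean is given for gfzf and Mgstl, which had 2 each. For gfzf the difference was -1.03 ± 0.27 (limma adjusted p = 0.0857). Its values were 4.47, 3.65 and 4.56 in Canton-S, 2.92, 3.64 and 3.04 in Act88FKM88, and 3.14, 3.59 and 3.18 in Mhc7, so Canton-S 2 and Act88FKM88 2 nearly met. It no longer passed without Canton-S 1 (adjusted p = 0.272), Canton-S 3 (0.207), Act88FKM88 1 (0.255), Act88FKM88 3 (0.179), Mhc7 1 (0.116) or Mhc7 3 (0.133). Mgstl, a microsomal glutathione transferase, was higher in Mhc7 than in Canton-S by 0.79 ± 0.13 (limma adjusted p = 0.00873, below 2-fold) while Act88FKM88 minus Mhc7 gave -1.05 ± 0.13 (0.00485). The latter was below 2-fold without Act88FKM88 2 (-0.99), with the quantile normalization repeated (-0.87) and with the intensity trend removed (-0.90).

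**Figure D4:**
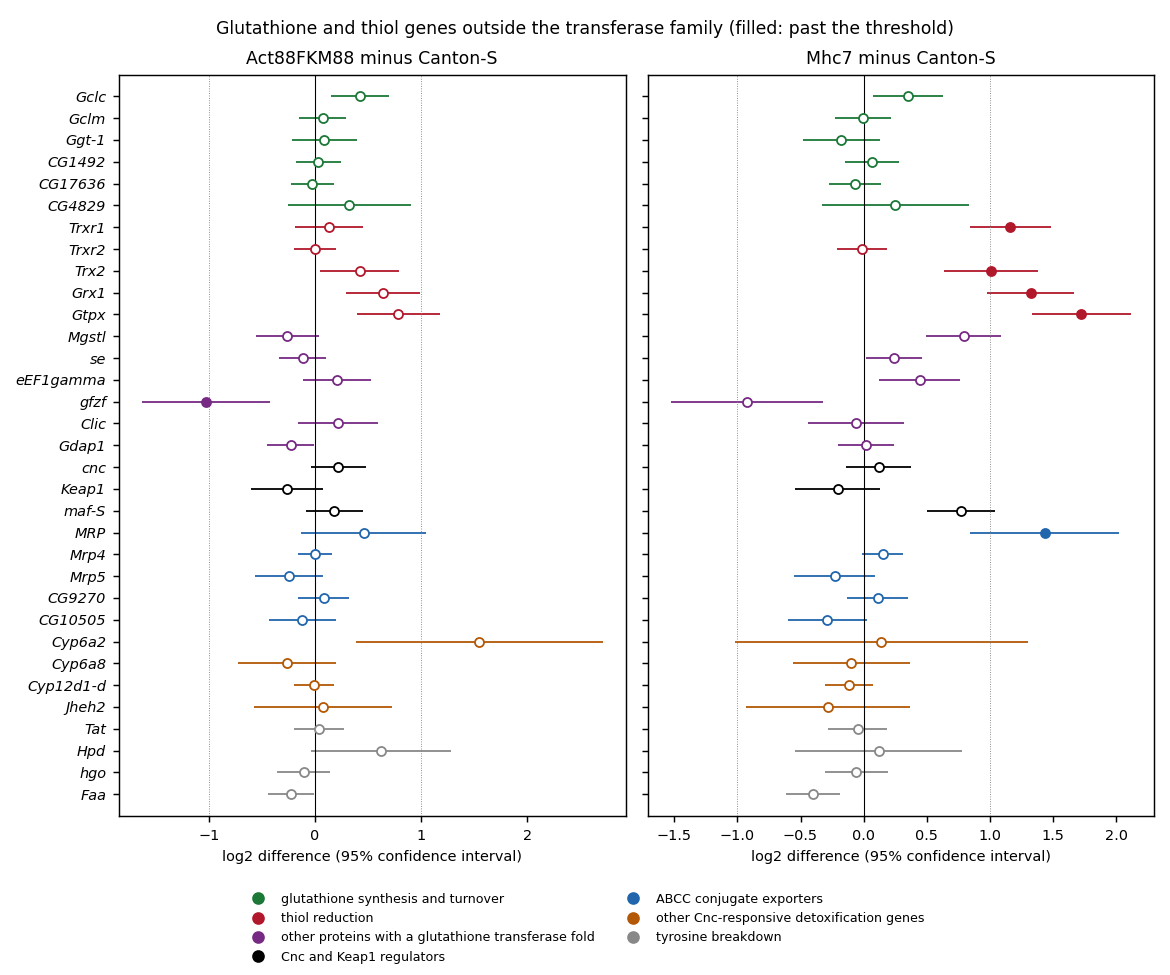
Log2 differences from Canton-S with 95% confidence intervals of the limma contrast (n = 3 arrays per genotype) for 33 genes of glutathione and thiol metabolism outside the Gst symbols, coloured by list. Filled points passed an adjusted p of 0.1 and 2-fold, which on the right are Trxr1, Trx2, Grx1, Gtpx and MRP, and on the left gfzf.

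Genes that make or break down glutathione gave no call. Of 8 listed, 6 were measured, and the probe sets with the highest means were Ggt-1, which cleaves glutathione outside cells, and Gclc, the catalytic subunit of the enzyme that starts its synthesis. Ggt-1 differed by 0.09 ± 0.13 in Act88FKM88 and -0.18 ± 0.13 in Mhc7 (limma adjusted p = 0.829 and 0.587). Gclc differed by 0.42 ± 0.12 and 0.35 ± 0.12 (limma adjusted p = 0.121 and 0.173).

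The regulators of the response also gave no call over 3 measured genes. maf-S, the small partner of Cnc on DNA, differed by 0.77 ± 0.12 in Mhc7 (limma adjusted p = 0.00592, below 2-fold), and cnc itself by 0.12 ± 0.11 (0.686). Of 7 other detoxification genes listed as responsive to Cnc, 4 were measured and 0 passed in either mutant. The highest means among them were those of Jheh2, with differences of 0.07 ± 0.29 and -0.28 ± 0.29, and Cyp6a8, with -0.26 ± 0.20 and -0.10 ± 0.20 (limma adjusted p from 0.63 to 0.942).

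Markers of other thoracic tissues were read beside these results as summed linear signal per array. Of the 5 fat body markers, 1 was below the median level, and FASN1 rose in Act88FKM88, where 1.92% of all genes rose. The 5 summed to 145 to 720 in Canton-S, 348 to 450 in Act88FKM88 and 261 to 1286 in Mhc7. The 7 hemocyte markers (3 below) gave 328 to 560, 271 to 599 and 276 to 338, and the 6 gut and tubule markers (2 below) gave 60 to 172, 93 to 259 and 65 to 159. These 3 lists overlapped across genotypes. The 5 neuron and glia markers (2 below) gave 473 to 906, 1021 to 1280 and 668 to 832, and Act88FKM88, where GstE1 and GstE6 rose, stood above the others. Gs2, a glutamine synthetase enriched in glia, carried that sum, with a difference of 0.97 ± 0.25 (limma adjusted p = 0.0843, below 2-fold). The other 4 of the list differed by 0.04 to 0.11 (limma adjusted p from 0.775 to 0.926). The 6 epidermis and cuticle markers (2 below) gave 4372 to 5248, 585 to 1675 and 430 to 1323. Cpr64Aa, at a mean of 12.17 in Canton-S, carried that sum, with differences of -2.42 ± 0.46 and -2.80 ± 0.46. Cpr76Bd also fell in both mutants (-2.22 and -2.17), and Ddc fell in Mhc7 (-1.98). Thus 2 of the 6 fell in Act88FKM88 and 3 in Mhc7, where 0.434% and 0.442% of all genes fell. Cpr49Ae, Twdlalpha and ple did not pass in either mutant. The 2 jump muscle markers gave 744 to 5666, 2235 to 12871 and 886 to 2667, and the 4 tracheal markers 139 to 207, 131 to 229 and 120 to 791. The part of these tissues in the Gst differences was not tested.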

How the data were processed

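RNA from dissected flight muscle of 9 samples (3 per genotype) was hybridised to 1 array each. The authors deposited log2 values per probe set, made by RMA (background correction, normalization and summary over probes) per the series' design text. The RMA version, and whether all arrays were normalized together, are not given in the sources used here. The precision rests on the number of arrays, since an array has no sequencing depth. After 183 control probe sets were left out, 18769 probe sets were fitted with limma 3.58.1 in R 4.3.3, with 1 mean per genotype, a moderated variance and Benjamini-Hochberg adjustment over all probe sets. All p-values are two-sided. No filter on level was set. The fitting code was tested on simulated data.

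Platform annotation named 1 gene for 13647 probe sets, several for 402 and none for 4720. Members and lists were chosen with earlier results of these data known. Values in every array are given for Gst genes that passed in any of 3 contrasts, GstS1 and the highest-mean member of each class. From the lists of glutathione and thiol genes, those that passed, or otherwise the 2 with the highest means, are named. The naming of tissue markers and tyrosine breakdown genes did not follow this rule. Other genes outside it are marked where they appear.

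Replicate numbers were checked as pairs. Deviations of same-numbered arrays from their group means correlated at r = -0.32 to 0.43. Arrays with different numbers were not compared, so this check cannot tell whether the numbers pair the samples. The main fit treated the samples as unpaired. Alternatives were a stricter and a looser threshold, fits on 6 arrays, SAM, array weights, an intensity-dependent variance prior, a filter on level, repeated quantile normalization, loess removal of each array's intensity trend, other choices of probe set, the replicate number as a block, and leaving out every array in turn. Gene order came from RefSeq's Release 6 assembly. No sequences were used here.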

Additional observations from a re-analysis of the deposited data

Results flagged for a closer look

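For 3 Gst genes the level in 1 mutant differed from the level in the other in the limma contrast between the mutants. GstD1 was lower in Act88FKM88 than in Mhc7 (a log2 difference of -1.43), although it rose against Canton-S in both. GstD3 differed by -1.64, and its Act88FKM88 arrays lay within the Canton-S range. GstE1 differed by 1.91, and its Mhc7 arrays lay within the Canton-S range.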

How the results depend on the processing

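The counts of Gst genes lower than Canton-S were 0 in both mutants under every alternative run. The count of genes higher in Act88FKM88 was 1 by SAM on the 6 arrays of the pair (GstE6), 4 with no minimum fold (adding GstE7), 3 to 4 when 1 array was left out (GstE3 was added without Act88FKM88 2), and 3 otherwise. The count higher in Mhc7 was 3 with the intensity trend removed and 3 with the quantile normalization repeated, 4 when probe sets of a gene were averaged, 6 with no minimum fold, and 3 to 5 when 1 array was left out. In each fit with 3 calls these were GstD1, GstD3 and GstO3. Between the mutants, the count higher in Act88FKM88 was 2 with no minimum fold and 2 with array weights, both adding GstE6, and 0 to 2 when 1 array was left out. The count lower in Act88FKM88 was 1 at an adjusted p of 0.05, 4 with no minimum fold, 1 on only the 6 arrays compared, and 1 to 3 when 1 array was left out. Array weights added GstO3 to the genes lower in Act88FKM88. With the replicate block the counts were 3, 5, 1 and 2, as without it. Without probe sets that can match several transcripts, GstS1 had no value. The medians of the omega and sigma classes in Act88FKM88 changed sign with the scale, to -0.12 and -0.04 under repeated quantile normalization and -0.06 and -0.29 with the intensity trend removed. The causes were not tested. With 3 arrays per genotype, differences near 2-fold crossed the limit when 1 array was left out, as for GstO2 and Trx2. Larger differences also lost the call, through the adjusted p, as for GstE11 in Mhc7 and GstD1 and GstE1 between the mutants. The signal over background of the 9 dimmest members limits what can be seen in them.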

Other observations

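Act88FKM88 3 gave the highest value of its group for 11 of the 25 Gst genes above the median level, beside 5 for Act88FKM88 1 and 9 for Act88FKM88 2. Within their own groups the counts were 7, 4 and 14 for Canton-S 1, 2 and 3, and 12, 5 and 8 for Mhc7 1, 2 and 3. The following genes were chosen after their values were seen. GstD9, the neighbour of GstD1, lay at 4.72, 4.29 and 6.35 in Act88FKM88 and between 3.93 and 4.90 in Canton-S. Its difference was 0.79 ± 0.49 (limma adjusted p = 0.526), and 0.17 without Act88FKM88 3. The detoxification gene Cyp6a2 lay at 3.81, 3.77 and 6.06 in Act88FKM88 and at 2.94 to 3.05 in Canton-S, with a difference of 1.55 ± 0.51 (limma adjusted p = 0.185). Hpd, an enzyme of tyrosine breakdown upstream of the zeta transferases, lay at 3.95 in Act88FKM88 3 and at 2.71 and 2.72 in the other two arrays of that genotype. Of the 4 measured tyrosine breakdown genes, 0 passed in either mutant by limma. Faa, the step after the zeta transferases, differed by -0.40 ± 0.10 in Mhc7 (limma adjusted p = 0.0479, below 2-fold), and Tat, the entry enzyme, by -0.05 ± 0.10 (0.89).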
